A study of Mus musculus with 6 samples.

Results

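The genes examined here encode the enzymes, receptors and inhibitors that govern plasminogen activation and the start of coagulation at the cell surface: *Plau*, *Plat*, *Plaur*, *Serpine2*, *Serpinf1*, *F3*, *Tfpi*, *Tfpi2* and *Procr*. They were chosen by symbol, and all 9 were found among the 37384 gene symbols of the count table. RNA was sequenced from floated adipocytes of inguinal subcutaneous white adipose tissue (scWAT) taken from male mice on postnatal day 7. There were 3 libraries of *Lats1* f/f *Lats2* f/f mice (L1L2-FF) and 3 libraries of littermates that also carry *Adipoq* Cre (L1L2-AKO), each from a pool of 4 mice. Both genotypes therefore share the floxed alleles of *Lats1* and *Lats2*, the kinases of the Hippo pathway that restrain YAP and TAZ, and differ in Cre recombinase driven by the adipocyte promoter *Adipoq*. Other cells that floated with or clung to adipocytes can also give RNA to a library. Those in which Cre was never active would keep both kinases. Pooling hides how single mice vary. In bulk RNA, fewer cells of a type and less RNA per cell cannot be told apart.

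Plasminogen circulates in blood and tissue fluid as a proenzyme and is cut to plasmin by urokinase (uPA, encoded by *Plau*) or by tissue-type activator (tPA, encoded by *Plat*). The uPA receptor, encoded by *Plaur*, holds uPA at the cell surface, and serpins such as protease nexin, encoded by *Serpine2*, trap the activators. Plasmin degrades fibrin and other matrix proteins and activates matrix metalloproteases. Coagulation begins when tissue factor, encoded by *F3*, binds factor VII; TFPI, encoded by *Tfpi*, blocks that complex, and the endothelial protein C receptor, encoded by *Procr*, favours the anticoagulant protein C pathway.

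The largest difference was that of *Serpine2*, which rose about 10.7-fold in the L1L2-AKO-labelled libraries. *Plaur* rose 1.73-fold, *Procr* fell to 0.564 of its L1L2-FF level, and the remaining 6 genes, *Plau*, *Plat*, *Serpinf1*, *F3*, *Tfpi* and *Tfpi2*, did not pass the test. All 9 genes passed the filter on low counts, and edgeR's quasi-likelihood test at a threshold of 0.05 on the adjusted p-value called 2 higher and 1 lower. Over all 15674 genes tested, 16.5% passed in either direction, 9.28% higher and 7.18% lower, against 33.3% of the 9. The libraries of the genotypes did not overlap in 3 of the 9 genes (33.3%), 2 of them higher and 1 lower, whereas 36.4% of all genes tested did not overlap, 18.0% higher and 18.4% lower. The median log2 fold change of the 9 genes was 0.16, and that of all genes tested was -0.02.

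Total counts ranged from 30548473 to 32107917 per library, and the 9 genes had between 153 and 13380 counts each in a library. The first principal component of log2 CPM (counts scaled by library size and TMM factors) accounted for 61.8% of the variance, with the genotypes on opposite sides. *Lats1*, a targeted gene, fell by 1.04 on the log2 scale in the L1L2-AKO-labelled libraries (edgeR, adjusted p = 0.00131). *Lats2*, the other, went against the label, with 74.9, 85.7 and 68.5 CPM in replicates 1 to 3 of L1L2-FF and 96.2, 126 and 135 CPM in the L1L2-AKO-labelled libraries (log2 fold change 0.64, adjusted p = 0.0278 in the same edgeR test). Counts per gene do not separate its floxed exons from the rest, it overlaps *Gm49361* on the same strand, and its rise missed the threshold without L1L2-FF replicate 1 (adjusted p = 0.1, edgeR), L1L2-FF replicate 3 (adjusted p = 0.0651), L1L2-AKO replicate 2 (adjusted p = 0.104) or L1L2-AKO replicate 3 (adjusted p = 0.0946). All directions here are therefore those of the labels. Of 10 targets of YAP and TEAD, a list that includes *Lats2*, edgeR called 7 higher and 0 lower in the L1L2-AKO-labelled libraries. It called 4 higher without L1L2-FF replicate 1 or L1L2-AKO replicate 2. All 10 markers of mature adipocytes were detected, with summed levels of 20297 to 22421 CPM in L1L2-FF and 11551 to 14009 CPM in the L1L2-AKO-labelled libraries.

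**Figure D1:**
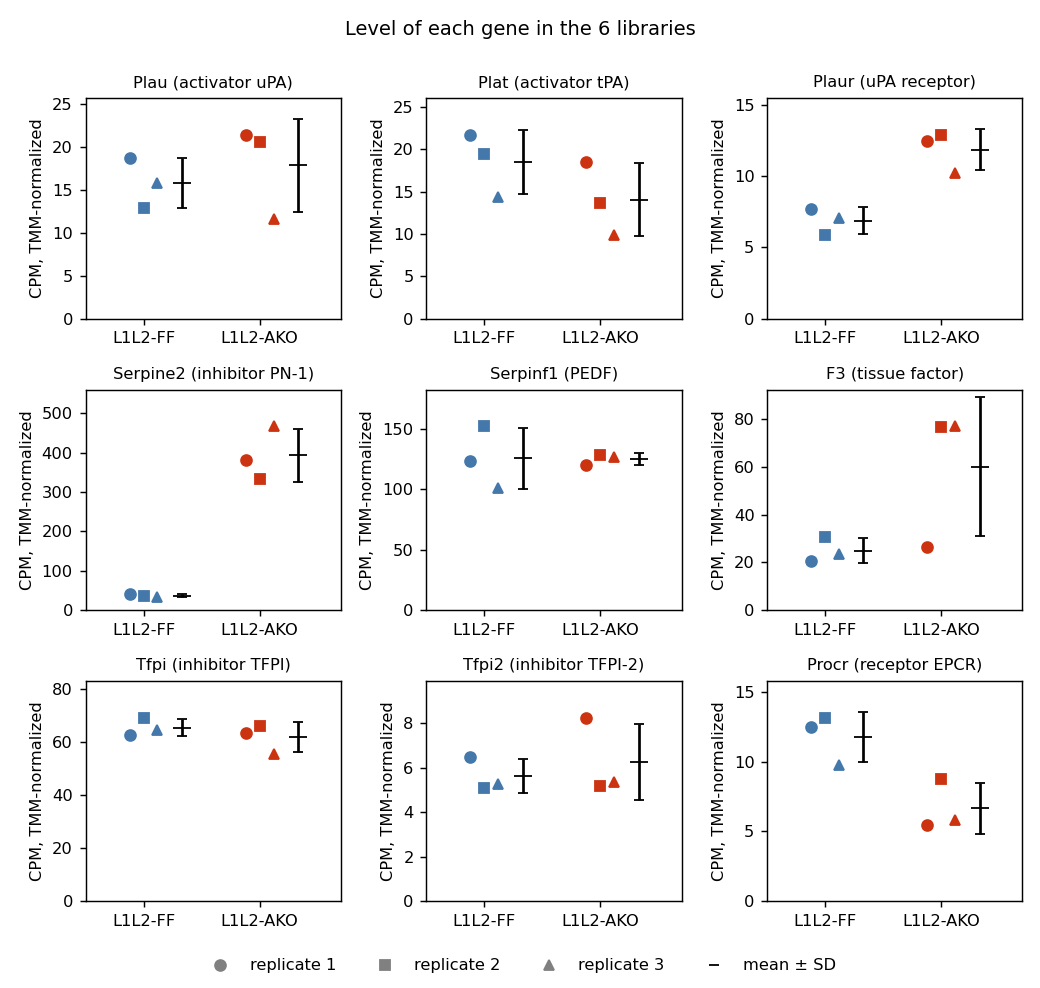
Levels of the 9 genes by library. Each panel plots TMM-normalized CPM on a linear axis from 0 for the 3 L1L2-FF libraries (blue) and the 3 libraries labelled L1L2-AKO (red), with marker shape for the replicate number and the bar for mean ± SD; *Serpine2* and *Plaur* are higher and *Procr* lower without overlap, and *F3* in L1L2-AKO replicate 1 lies among the L1L2-FF values.

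To show what lies before the start of the genes with the 4 largest fold changes in either direction, their promoter sequences were taken from RefSeq (GRCm38.p6, the assembly also called mm10), 5′ to 3′ on the gene's strand, and each stretch ends at the last base before the RefSeq start or before the outermost overlapping exon of GENCODE M21. Capitals mark matches to TGANTCA, in which N is any base, called the AP-1 motif here. It is wider than the usual site of FOS and JUN factors, in which N is C or G.
Serpine2, chr1:79858697-79858915 (minus strand): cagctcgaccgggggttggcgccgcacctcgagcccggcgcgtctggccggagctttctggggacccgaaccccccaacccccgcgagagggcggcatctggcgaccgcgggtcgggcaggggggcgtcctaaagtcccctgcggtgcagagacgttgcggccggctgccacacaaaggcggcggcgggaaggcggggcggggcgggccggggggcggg
Plaur, chr7:24462233-24462482 (plus strand): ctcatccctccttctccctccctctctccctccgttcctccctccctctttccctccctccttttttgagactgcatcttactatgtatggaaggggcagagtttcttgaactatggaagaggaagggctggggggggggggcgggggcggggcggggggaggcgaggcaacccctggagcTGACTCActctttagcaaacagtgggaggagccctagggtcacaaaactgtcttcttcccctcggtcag
F3, chr3:121723287-121723536 (plus strand): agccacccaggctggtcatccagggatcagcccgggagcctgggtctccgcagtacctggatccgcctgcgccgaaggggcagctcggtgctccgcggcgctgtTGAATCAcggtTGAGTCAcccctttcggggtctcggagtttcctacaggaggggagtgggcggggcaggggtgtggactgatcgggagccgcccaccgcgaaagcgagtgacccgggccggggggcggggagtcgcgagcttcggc
Procr, chr2:155750967-155751116 (plus strand): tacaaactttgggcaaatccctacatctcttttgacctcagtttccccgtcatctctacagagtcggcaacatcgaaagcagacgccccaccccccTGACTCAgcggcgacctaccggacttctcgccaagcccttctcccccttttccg
The TEAD motif GGAATG, read on both strands as GGAATG or CATTCC, was searched in the full 250 bases before the start, as was the AP-1 motif, which reads alike on both strands. No TEAD match lay in any of the 10 windows that RefSeq gives for 7 of the 9 genes, where 12.6% of all 32851 windows held one; *Plau* and *Plat* had no window. An AP-1 match lay in a window of 4 genes: *Plaur*, at 69 to 63 bases before the start, *F3*, at 146 to 140 and again at 135 to 129 bases, *Procr*, at 154 to 148 bases, and *Tfpi2*, at 77 to 71 bases in 1 of its 3 windows. The *Tfpi2* match and the *F3* match at 146 to 140 bases read TGAATCA, so they match only the wider pattern. The share of all windows with a match to that wider pattern was 6.75%. The window of *Serpine2*, which had 78.8% G and C, held neither motif, and the gene as annotated in GENCODE M21 extends beyond this start. No match overlapped another. The matches describe letters in these windows, and the counts do not show what binds there.

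The inhibitor *Serpine2* (ENSMUSG00000026249.10) spans 79794197 to 79861180 of chromosome 1, minus strand (mm10, GENCODE M21, also the source of the positions that follow). Its product, protease nexin, inhibits thrombin, uPA, tPA and plasmin at the cell surface. The levels were 41.7, 35.6 and 32.9 CPM in replicates 1 to 3 of L1L2-FF and 381, 334 and 467 CPM in L1L2-AKO-labelled replicates 1 to 3. Every library labelled L1L2-AKO thus lay far above every L1L2-FF library, with little spread within either genotype (coefficients of variation of 12.3% and 17.1%). The mean rose from 36.7 ± 4.52 to 394 ± 67.5 CPM (SD, n = 3 each), which is 3.42 on the log2 scale with a standard error of 0.176 and a 95% interval of 3.02 to 3.83 (edgeR, adjusted p = 1.3e-04). By p-value it ranked 5 of all 15674 genes tested. The log2 fold change stayed between 3.29 and 3.53 when single libraries were left out. Among the summed marker lists of 11 cell types, the largest ratio of mean levels between the genotypes was 2.73, for macrophages, and the summed progenitor markers had a ratio of 0.943. That progenitor sum includes *Sema3c*, whose mean rose from 74.7 to 228 CPM, while 8 of the 10 markers had a negative log2 fold change. A sum does not stand for every marker of its list. The 3 tested mesothelial markers, 2 with a positive and 1 with a negative log2 fold change, had a median of 2.23. The sum of the mesothelial list had a ratio of 1.02. The part of RNA from other cells in the rise of *Serpine2* was not tested. No annotated gene overlaps it, and 0.303% of its 50-base stretches occur in transcripts of other genes.

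*Serpinf1* (chromosome 11, 75409769 to 75422701, minus strand) encodes PEDF, a secreted serpin that inhibits no protease and restrains vessel growth. It was the most abundant of the 9 genes in L1L2-FF per length of transcript. The levels were 123, 152 and 101 CPM in L1L2-FF and 120, 128 and 127 CPM in the L1L2-AKO-labelled libraries. The L1L2-FF libraries enclosed those labelled L1L2-AKO on both sides. The log2 fold change was -0.01, with a 95% interval of -0.36 to 0.35 (edgeR, adjusted p = 0.986).

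The activators did not pass the test. For *Plau* (chromosome 14, 20836660 to 20843385, plus strand), which encodes uPA, the levels were 18.7, 12.96 and 15.8 CPM in L1L2-FF and 21.4, 20.6 and 11.6 CPM in the L1L2-AKO-labelled libraries. The lowest and the highest library both carried the L1L2-AKO label, and the log2 fold change of 0.18 had a 95% interval of -0.39 to 0.75 (edgeR, adjusted p = 0.686). For *Plat* (chromosome 8, 22757727 to 22782844, plus strand), which encodes tPA, the levels were 21.7, 19.5 and 14.4 CPM in L1L2-FF and 18.5, 13.7 and 9.92 CPM in the L1L2-AKO-labelled libraries. The groups overlapped through L1L2-AKO replicate 1, and the log2 fold change was -0.40 (95% interval -0.97 to 0.17, edgeR, adjusted p = 0.33).

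*Plaur* (chromosome 7, 24462484 to 24475968, plus strand), the receptor that concentrates uPA on the membrane of leukocytes and other migrating cells, had 7.72, 5.88 and 7.06 CPM in L1L2-FF and 12.5, 12.9 and 10.3 CPM in the L1L2-AKO-labelled libraries. The genotypes did not overlap. The mean was 6.89 ± 0.937 CPM in L1L2-FF and 11.9 ± 1.42 CPM with the other label (SD, n = 3 each), and the difference was 0.79 on the log2 scale with a standard error of 0.176 (edgeR, adjusted p = 0.0202). In edgeR fits with a library left out, the adjusted p was 0.0528 without L1L2-FF replicate 1 and 0.0587 and 0.0883 without replicates 1 and 2 of L1L2-AKO. Markers of macrophages, which express *Plaur*, also differed between the genotypes. All 10 rose (6 if replicate 1 of L1L2-FF or replicate 2 of L1L2-AKO was left out), and none was at 0. Their summed level was 241 to 474 CPM in L1L2-FF and 901 to 1023 CPM in the L1L2-AKO-labelled libraries. Within L1L2-FF, replicate 2 had both the highest sum, 474 CPM, and the lowest *Plaur*, 5.88 CPM. *Plaur* came to 2.40%, 1.24% and 2.93% of that sum in replicates 1 to 3 of L1L2-FF and to 1.36%, 1.26% and 1.14% in the L1L2-AKO-labelled libraries. The part of macrophage RNA in the rise of *Plaur* was not tested.

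On the side of coagulation, *F3* (chromosome 3, 121723537 to 121735048, plus strand), which encodes tissue factor, differed among the libraries of a single label. The levels were 20.6, 30.7 and 23.7 CPM in L1L2-FF and 26.4, 76.8 and 77.1 CPM in the L1L2-AKO-labelled libraries. Replicates 2 and 3 of L1L2-AKO lay above all L1L2-FF libraries, and L1L2-AKO replicate 1 lay below L1L2-FF replicate 2. The mean was 24.96 ± 5.18 CPM in L1L2-FF and 60.1 ± 29.2 CPM in the L1L2-AKO-labelled libraries (SD, n = 3 each), and the difference of 1.27 on the log2 scale, with a standard error of 0.375, missed the threshold (edgeR, adjusted p = 0.0548). Without L1L2-AKO replicate 1 the log2 fold change was 1.62 and edgeR's adjusted p 0.00149, and DESeq2's Wald test on all 6 libraries gave an adjusted p of 0.0031. L1L2-AKO replicate 1 was also the lowest of its group in 896 of the 1455 genes (61.6%) that were higher in the L1L2-AKO-labelled libraries, and its summed level of 10 targets of YAP and TEAD, *Lats2* among them, was 1687 CPM, against 2608 and 2962 CPM in replicates 2 and 3 and 979 to 1422 CPM in L1L2-FF. The part of that library's lower shift in the values of *F3* was not tested. As a share of the summed mural markers, whose cells are known to express tissue factor, *F3* came to 1.03% to 1.53% in L1L2-FF and to 1.55%, 4.67% and 4.99% in L1L2-AKO replicates 1 to 3. Of the 10 mural markers, 3 fell (*Rgs5*, *Cspg4* and *Higd1b*) and 1 rose (*Notch3*) in edgeR's test, with 2 past the threshold if replicate 1 of L1L2-FF was left out and 1 if replicate 2 of L1L2-AKO was. Their median log2 fold change was -0.74, so the sum does not stand for every marker. As a share of the summed adipose progenitor markers, *F3* came to 2.62% to 3.83% in L1L2-FF. It came to 3.50%, 11.3% and 11.5% in L1L2-AKO replicates 1 to 3. Of those 10 progenitor markers, 8 had a negative log2 fold change. The part of mural or progenitor RNA in the values of *F3* was not tested.

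The inhibitors of tissue factor did not pass the test. *Tfpi* (chromosome 2, 84432855 to 84476775, minus strand), whose product blocks the complex of tissue factor and factor VII, had 62.7, 69.1 and 64.4 CPM in L1L2-FF and 63.5, 66.2 and 55.4 CPM in the L1L2-AKO-labelled libraries. It had the smallest spread within L1L2-FF of the 9 genes (coefficient of variation 5.09%), and its log2 fold change of -0.08 had a 95% interval of -0.34 to 0.17 (edgeR, adjusted p = 0.668). *Tfpi2* (chromosome 6, 3962595 to 3988919, minus strand), which encodes a related inhibitor that also blocks plasmin, had 6.48, 5.10 and 5.25 CPM in L1L2-FF and 8.24, 5.17 and 5.34 CPM in the L1L2-AKO-labelled libraries. Apart from the higher L1L2-AKO replicate 1, its values overlapped, and the log2 fold change was 0.16 (95% interval -0.39 to 0.70, edgeR, adjusted p = 0.711).

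*Procr* (chromosome 2, 155751117 to 155755471, plus strand), which encodes the receptor that presents protein C for activation, had 12.4, 13.1 and 9.77 CPM in L1L2-FF and 5.43, 8.72 and 5.80 CPM in the L1L2-AKO-labelled libraries. Of the 9 genes, only *Procr* was lower without overlap. The mean fell from 11.8 ± 1.78 to 6.65 ± 1.80 CPM (SD, n = 3 each), and the difference was -0.83 on the log2 scale with a standard error of 0.227 (edgeR, adjusted p = 0.0433). The call is close to the threshold: with library size alone in place of TMM the adjusted p of edgeR's test was 0.0566, and it was 0.134 without L1L2-FF replicate 1, 0.0792 without L1L2-FF replicate 2 and 0.113 and 0.143 without replicates 1 and 3 of L1L2-AKO. Of 10 markers of endothelial cells, which express *Procr*, 9 had a negative log2 fold change (median -0.48) and none was at 0. EdgeR called 0 of them (2 at an unadjusted p under 0.05), DESeq2's Wald test 1 and limma-voom 0, and edgeR called 1 lower without L1L2-AKO replicate 1. Their summed level was 2060 to 2751 CPM in L1L2-FF and 1193 to 2583 CPM in the L1L2-AKO-labelled libraries. As a share of that sum, *Procr* came to 0.452%, 0.520% and 0.474% in L1L2-FF and to 0.210%, 0.421% and 0.486% in the L1L2-AKO-labelled libraries, so that on this scale replicate 3 lay among the L1L2-FF values. The part of endothelial RNA in the fall of *Procr* was not tested.

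**Figure D2:**
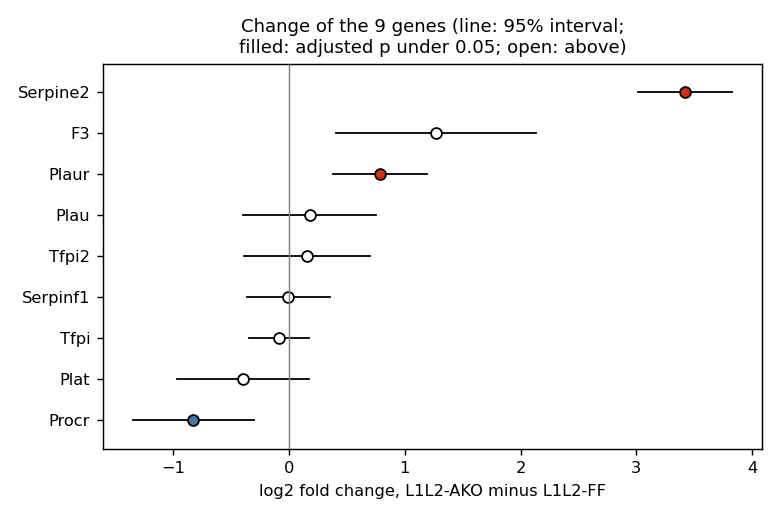
Log2 fold changes of the 9 genes. The axis gives L1L2-AKO minus L1L2-FF from edgeR's fit, the line is the 95% interval of each gene, not adjusted for the number of genes, and filled points have an adjusted p-value under 0.05; *Serpine2* at 3.42 stands apart from the rest, which lie between -0.83 and 1.27.

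To compare the genes with each other, levels were divided by the length of all exons of GENCODE M21, in CPM per kilobase (kb). In L1L2-FF, *Serpinf1* led with a level of 53.2 ± 10.8 CPM per kb (SD, n = 3), followed by *Tfpi* at 12.0, *F3* at 9.88, *Plau* at 6.68, *Procr* at 5.80, *Serpine2* at 4.43, *Tfpi2* at 3.21, *Plat* at 2.97 and *Plaur* at 2.63 CPM per kb. Neighbours in this order overlapped in their libraries except *Serpinf1* and *Tfpi*, *F3* and *Plau*, and *Serpine2* and *Tfpi2*. In the L1L2-AKO-labelled libraries, *Serpine2* was at 47.6 ± 8.14 CPM per kb (SD, n = 3) and overlapped with *Serpinf1* at 53.0, and both lay above *F3* at 23.8, *Tfpi* at 11.3, *Plau* at 7.56, *Plaur* at 4.54, *Tfpi2* at 3.58, *Procr* at 3.27 and *Plat* at 2.25 CPM per kb. From *Plau* down to *Plat*, each gene overlapped with the next. The place of *Serpine2* rests on its length, since the union of its exons (8287 bases) is longer than its longest transcript (3393 bases): per kb of longest transcript its level was 116 CPM, above *Serpinf1* at 68.2 CPM, in the L1L2-AKO-labelled libraries. In L1L2-FF it was then 10.8 CPM, above *Procr* at 7.33 and *Plau* at 6.75 CPM with no overlap of libraries, in place of below them.

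Relative to *Serpine2*, the activators it can inhibit were lower in the L1L2-AKO-labelled libraries. Per kb of exons, the ratio of *Plau* to *Serpine2* levels was 1.57, 1.28 and 1.68 in replicates 1 to 3 of L1L2-FF and 0.197, 0.216 and 0.0871 in the L1L2-AKO-labelled libraries. The ratio of *Plat* to *Serpine2* was 0.580 to 0.727 in L1L2-FF and 0.0282 to 0.0646 in the L1L2-AKO-labelled libraries. Per kb of longest transcript, *Plau* came to 0.528 to 0.695 of *Serpine2* in L1L2-FF, below it instead of above, and to 0.0361 to 0.0894 in the L1L2-AKO-labelled libraries, and *Plat* to 0.367 to 0.460 and 0.0178 to 0.0408. Neither ratio overlapped between the genotypes with either length. As neither *Plau* nor *Plat* passed the test, this separation follows from the rise of *Serpine2* in the denominator and is not a further result. The ratio of *F3* to *Tfpi* was 0.709 to 0.960 in L1L2-FF and 0.900, 2.51 and 3.01 in L1L2-AKO replicates 1 to 3. That of *Plau* to its receptor *Plaur* was 2.44 to 2.68 in L1L2-FF and 1.25 to 1.90 in the L1L2-AKO-labelled libraries. These ratios describe mRNA levels and were not tested.

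**Figure D3:**
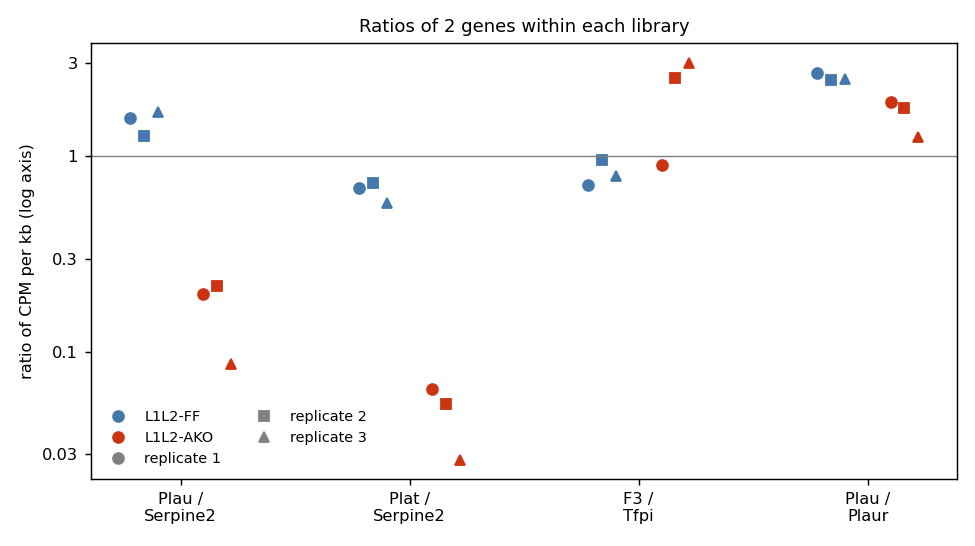
Ratios of 2 genes within each library. The log axis gives the ratio of CPM per kb of exons, blue for L1L2-FF and red for the L1L2-AKO-labelled libraries, with marker shape for the replicate number; *Plau* and *Plat* relative to *Serpine2* are lower in all 3 libraries labelled L1L2-AKO, and *F3* relative to *Tfpi* is higher in replicates 2 and 3 only.

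Other genes of the plasminogen system were read from a list of 20, of which 19 were in the table and 13 passed the filter. Of the 13, 3 rose, 1 fell and 9 did not pass edgeR's test (30.8% passed, against 16.5% of all genes tested), and the median log2 fold change was 0.17. The risers were *St14*, which encodes matriptase, a membrane protease that can activate pro-uPA, *Mrc2*, which encodes a collagen receptor that associates with the uPA receptor, and *Serpinb6a*, an intracellular serpin. *St14* had 1.21, 0.928 and 0.580 CPM in L1L2-FF and 8.66, 5.33 and 7.72 CPM in the L1L2-AKO-labelled libraries (log2 fold change 2.99, edgeR, adjusted p = 0.00119). *Mrc2* had 33.5, 31.2 and 21.7 CPM in L1L2-FF and 108, 143 and 191 CPM in the L1L2-AKO-labelled libraries (log2 fold change 2.35, edgeR, adjusted p = 9.7e-04). In both genes the groups did not overlap. *Serpinb6a* rose by a log2 fold change of 0.88 (edgeR, adjusted p = 0.00787), but it overlaps genes on the other strand and shares 25.1% of its 50-base stretches with them, so its count is uncertain.

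*Vtn*, which encodes vitronectin, a matrix protein that binds the uPA receptor, had 10.02, 15.3 and 4.83 CPM in L1L2-FF and 3.44, 3.08 and 2.30 CPM in the L1L2-AKO-labelled libraries. Its fall was -1.77 on the log2 scale (edgeR, adjusted p = 0.0206), with adjusted p-values of edgeR's test of 0.0665 without L1L2-FF replicate 1 and 0.0746 and 0.0841 without replicates 2 and 3 of L1L2-AKO, and of 0.0522 with limma-voom. The mural markers *Rgs5*, *Cspg4* and *Higd1b* also fell, with log2 fold changes of -1.22, -0.95 and -2.12 (edgeR, adjusted p of 0.0188, 0.0301 and 0.00506), and the part of mural RNA in the fall of *Vtn* was not tested. *Plg*, the gene of plasminogen itself, had at most 0.0625 CPM on average in a genotype and was not tested. *Anxa2* and *S100a10*, which form a surface receptor for plasminogen and tPA, had log2 fold changes of 0.41 and -0.03, and neither passed (edgeR, adjusted p of 0.531 and 0.907). The receptors *Lrp1* and *Vldlr*, which clear protease and serpin complexes, had log2 fold changes of 0.47 and -0.34 (edgeR, adjusted p of 0.296 and 0.482). *Eno1*, a glycolytic enzyme that also binds plasminogen, had a log2 fold change of 0.17 (edgeR, adjusted p = 0.655) and shares 26.0% of its 50-base stretches with copies such as *Eno1b*.

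For coagulation, 27 of 28 listed genes were in the table and 16 passed the filter. Of these, 6 rose, 1 fell and 9 did not pass edgeR's test (43.8% passed, against 16.5% of all genes tested), and the median log2 fold change was 0.46. Several proteins of the plasma cascade that the liver makes gave little RNA: *F2*, *F7*, *F9*, *F11*, *Fga*, *Fgb*, *Fgg* and *Proc* did not pass the filter, and *F13b* had 0 counts in all libraries. Others passed it, among them *F5*, *F10* and *Serpinc1*, with means of 0.469 to 1.53 CPM in a genotype. *Pros1* also passed it, with means of 72.6 CPM in L1L2-FF and 109 CPM in the L1L2-AKO-labelled libraries. *F2r*, the thrombin receptor PAR1, had 46.0, 50.5 and 40.5 CPM in L1L2-FF and 121, 114 and 106 CPM in the L1L2-AKO-labelled libraries (log2 fold change 1.32, standard error 0.122, edgeR, adjusted p = 6.5e-04). *Thbd*, which encodes thrombomodulin, the cofactor through which thrombin activates protein C on *Procr*'s product, had 48.2, 64.8 and 34.8 CPM in L1L2-FF and 110, 130 and 124 CPM in the L1L2-AKO-labelled libraries (2.46-fold, edgeR, adjusted p = 0.00577). It thus rose where *Procr* fell, both without overlap between the groups.

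*Gas6*, which encodes a vitamin K-dependent ligand of the receptors TYRO3, AXL and MERTK, rose from 31.3 ± 11.2 to 228 ± 87.4 CPM (SD, n = 3 each), with a log2 fold change of 2.86 (edgeR, adjusted p = 0.00217). Its libraries labelled L1L2-AKO were at 129, 261 and 294 CPM, all above the highest L1L2-FF library at 42.95 CPM. *Tmem255b* overlaps it on the other strand without sharing a 50-base stretch. *Pros1*, the gene of the related protein S, differed by 0.59 on the log2 scale, which missed the threshold (edgeR, adjusted p = 0.109). *F13a1*, which encodes the fibrin-crosslinking factor XIII and is made by macrophages, rose from 75.6 ± 16.2 to 186 ± 16.03 CPM (SD, n = 3 each), 2.46-fold (edgeR, adjusted p = 0.00234). Relative to the summed macrophage markers, it came to 19.0% to 24.3% in L1L2-FF and to 17.9% to 22.3% in the L1L2-AKO-labelled libraries, and its part in the macrophage RNA was not tested. *Serping1*, which encodes the inhibitor of complement C1 and of kallikrein, had 67.0, 102 and 48.8 CPM in L1L2-FF and 83.2, 309 and 306 CPM in the L1L2-AKO-labelled libraries. As for *F3*, only replicates 2 and 3 lay above all L1L2-FF libraries. Its log2 fold change was 1.68 (edgeR, adjusted p = 0.0495), with adjusted p-values of edgeR's test of 0.155 without L1L2-FF replicate 1, 0.125 without L1L2-FF replicate 3, and 0.154 and 0.149 without replicates 2 and 3 of L1L2-AKO, and with adjusted p-values of 0.0507 to 0.0728 under 4 other normalizations, filters or tests.

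*Serpind1*, the gene of heparin cofactor II, which inhibits thrombin, was near the limit of detection, with 2, 0 and 4 counts in the L1L2-FF libraries and 14, 13 and 14 in those with the other label. It passed edgeR's test (adjusted p = 0.0375), the ratio of summed counts scaled by library size was 6.93 with a 95% counting interval of 2.93 to 19.99 that covers counting error only, and the adjusted p of edgeR's test was above 0.05 in 4 of the 6 fits without a library (0.131 without L1L2-FF replicate 1, and 0.0797, 0.11 and 0.12 without L1L2-AKO replicates 1 to 3) and 0.0647 without a filter. *Vwf*, which encodes von Willebrand factor, an adhesive protein made by endothelial cells, had 38.1, 51.9 and 26.2 CPM in L1L2-FF and 24.4, 17.5 and 14.1 CPM in the L1L2-AKO-labelled libraries. Its fall was -1.05 on the log2 scale (edgeR, adjusted p = 0.038), and the adjusted p of edgeR's test was 0.107 without L1L2-FF replicate 1, 0.0706 without L1L2-FF replicate 2, 0.13 without either replicate 2 or replicate 3 of L1L2-AKO, and 0.0535 with library size alone. As a share of the summed endothelial markers, *Vwf* came to 1.27% to 2.06% in L1L2-FF and to 0.846% to 1.18% in the L1L2-AKO-labelled libraries. The part of endothelial RNA in its fall was not tested. Leaving out replicate 1 of L1L2-FF, or replicate 2 or 3 of L1L2-AKO, left 4 coagulation genes past the threshold instead of 7.

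**Figure D4:**
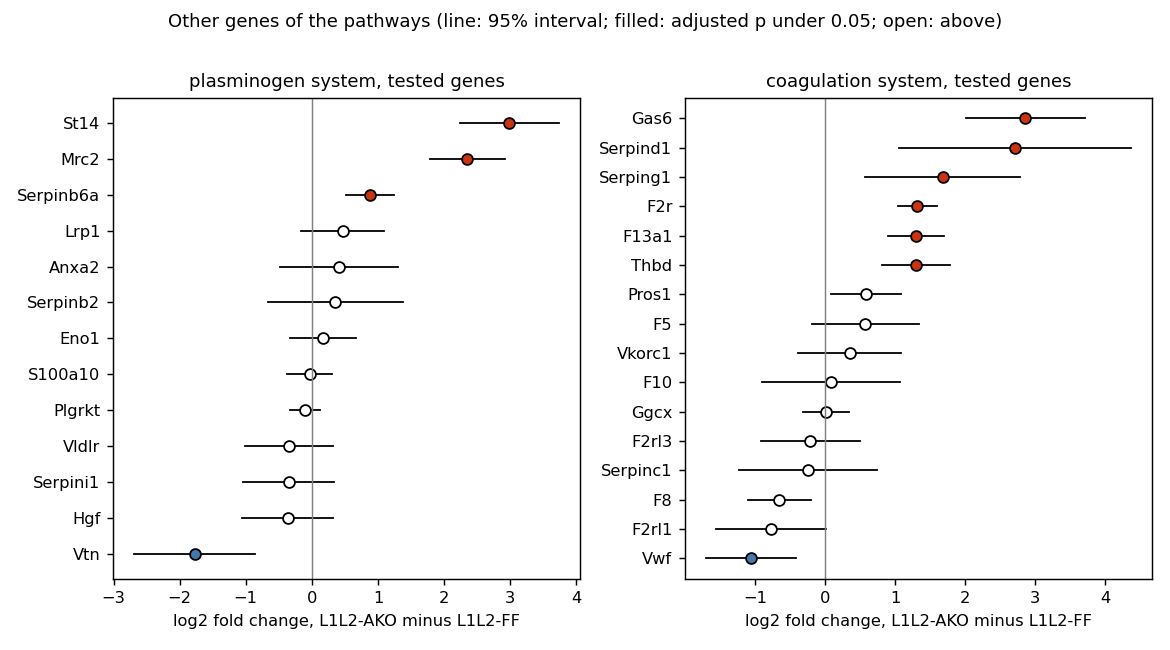
Log2 fold changes of the other tested genes of the plasminogen system (13 genes) and of coagulation (16 genes). The axis gives L1L2-AKO minus L1L2-FF from edgeR's fit, the line is the 95% interval, not adjusted for the number of genes, and filled points have an adjusted p-value under 0.05; *St14*, *Mrc2* and *Serpinb6a* rose and *Vtn* fell on the left, and 6 genes rose and *Vwf* fell on the right.

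Other cells that could have floated along were followed with 11 lists of 10 markers each, or 9 for Schwann cells. The adipocyte sum was lower, and the macrophage and platelet sums higher, in the L1L2-AKO-labelled libraries without overlap. Of the mature adipocyte markers, 4 fell and 6 did not pass edgeR's test, and their median log2 fold change was -0.64. The platelet sum was 17.4 to 26.5 CPM in L1L2-FF and 26.99 to 38.3 CPM in the L1L2-AKO-labelled libraries. Of its 5 tested genes, 3 had a positive and 2 a negative log2 fold change, and edgeR called only *Pf4*, as higher. With library size alone 0 were called, and also without replicate 1 or 3 of L1L2-FF or replicate 2 or 3 of L1L2-AKO. The mural sum, at 1584 to 2004 against 1544 to 1706 CPM, and the progenitor sum, at 618 to 828 against 672 to 754 CPM, overlapped between the genotypes, while single markers moved in both directions. Of the 10 progenitor markers, *Pi16* and *Wnt2* fell and *Sema3c* rose, with a median of -0.43 on the log2 scale, and 1 marker, higher, was past the threshold when replicate 1 of L1L2-FF or either replicate 2 or 3 of L1L2-AKO was left out. Mesothelial markers were near absent, with sums of 4.21 to 6.86 CPM in L1L2-FF and 4.62 to 6.49 CPM in the L1L2-AKO-labelled libraries. Of the 3 that passed the filter, *Krt19* and *Wt1* rose in edgeR's test without overlap, and 1 was lower without overlap but did not pass. Only 1 was called without replicate 1 of L1L2-FF or either replicate 2 or 3 of L1L2-AKO. The Schwann cell sum overlapped too, at 591 to 978 against 705 to 1240 CPM, but 8 of its 9 markers had a negative log2 fold change (median -1.43), 7 were lower without overlap, 3 fell (*Sox10*, *Mbp* and *S100b*) and *Pmp22* rose. All 9 had an unadjusted p under 0.05, and the number past the threshold was 2 without replicate 2 or 3 of L1L2-FF or replicate 1 of L1L2-AKO and 1 without replicate 3 of L1L2-AKO. The summed levels of the T and B cell, neutrophil and mast cell, and red cell lists overlapped. All 10 T and B cell markers had a positive log2 fold change (median 0.95), and edgeR called 0 of them. It called 5 higher without L1L2-FF replicate 2 and 1 higher without L1L2-AKO replicate 1.

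**Figure D5:**
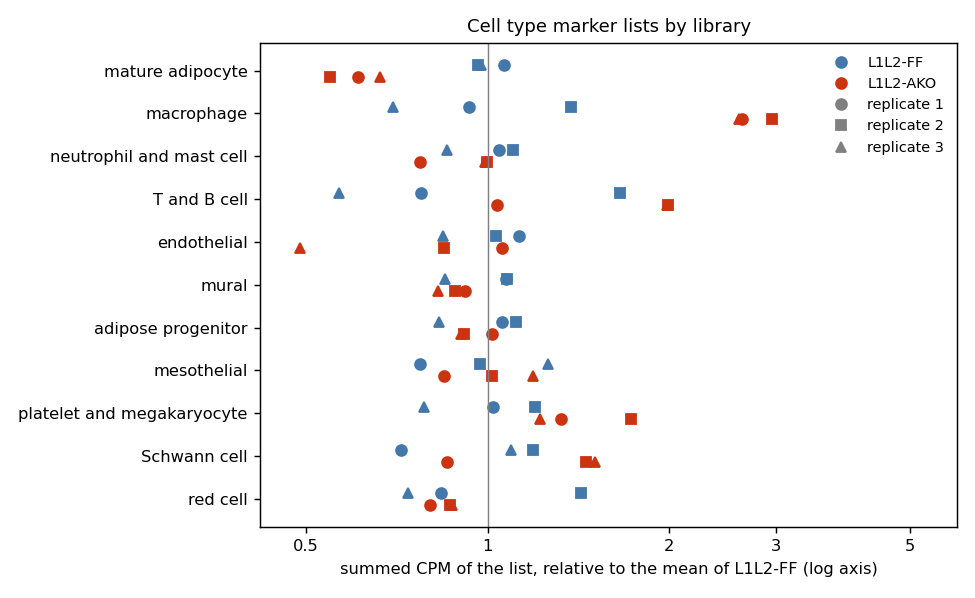
Summed CPM of 11 marker lists by library, relative to the mean of the L1L2-FF libraries, on a log axis. Blue points are L1L2-FF, red points the L1L2-AKO-labelled libraries, and marker shape gives the replicate number; the macrophage sum is higher and the adipocyte sum lower in all 3 libraries labelled L1L2-AKO, while the endothelial, mural and progenitor sums overlap.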

How the data were processed

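Counts per gene were analysed for 6 libraries of floated adipocytes, 3 of L1L2-FF and 3 of L1L2-AKO, each from 4 pooled mice. The authors aligned paired reads to mm10 with HISAT2 2.1.0 and analysed them with StringTie 1.3.5. What was deposited is a table of raw counts by gene symbol; the counting program, annotation and strand setting are not given in the sources used here.

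The filter of edgeR's filterByExpr (minimum count 10, minimum total 15) kept 15674 of 37384 symbols. Counts were scaled by TMM and compared by edgeR's quasi-likelihood F test; p-values were adjusted by Benjamini-Hochberg over all genes tested, at a threshold of 0.05 (R 4.3.3, edgeR 4.0.16, limma 3.58.1, DESeq2 1.42.0, Python 3.11.15). CPM denotes counts scaled to the TMM-adjusted library size. Standard errors are the log2 fold change over the square root of F, and 95% intervals use the fit's degrees of freedom. Positions and lengths come from GENCODE M21, promoters from RefSeq.

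The genes, lists and naming rule were chosen with earlier results of these data known. A gene of the plasminogen list and a marker of the Schwann cell list are not reported here and were left out of the counts and sums. Named pathway genes were the 5 most abundant of each list and up to 4 rises and 4 falls past the threshold. *Plg*, *F13b*, *F5*, *F10*, *Serpinc1* and the liver genes that did not pass the filter were named after their values were seen. Other normalizations, tests, filters, a replicate block and leaving out each library were the alternatives. The fits were also run on simulated counts with the same dispersion for every gene. As real genes differ in spread, that run does not measure the error of the calls here. Replicates are pools of mice per the study's methods, and p-values measure only the spread between these pools.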

Additional observations from a re-analysis of the deposited data

How the results depend on the processing

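Of the 9 genes, *Serpine2* kept its direction and its call under all 14 alternatives, with a log2 fold change of 3.29 to 3.53. *Plaur* kept its call under the other normalizations, tests and filters, and its log2 fold change was 0.68 to 0.89 with a library left out. *F3* was higher in all fits (1.05 to 1.62 with a library left out) and passed the threshold with DESeq2's Wald test (log2 fold change 1.28), without a filter (1.27) and with the replicate number as a block (1.14), and the cause was not tested. *Procr* was lower in all fits (-1.07 to -0.70 with a library left out) and missed the threshold with library size alone (-0.84), with the cause not tested. *Plau*, *Plat* and *Tfpi* kept their sign and *Serpinf1* and *Tfpi2* changed it in some fits, and none of the 5 was called in any. The number of the 9 genes called was 1 to 3 with a library left out, 1 of them without L1L2-FF replicate 1, and 2 to 4 otherwise.

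Over all genes, 2580 passed the threshold and 1281 to 2845 with a library left out (1290 without L1L2-FF replicate 1, and 1281 and 1374 without replicates 2 and 3 of L1L2-AKO). The coagulation list had 7 calls and 4 to 7 with a library left out, and the plasminogen list 4 and 3 to 4. Scaling shifted the median of all genes by at most 0.035 in size on the log2 scale. Whether replicate numbers pair the samples cannot be told from 3 libraries per genotype: the correlation of same-numbered deviations was 0.188, 0.255 and -0.0544. Replicates 1 and 2 of L1L2-FF correlated best with their own number, and replicate 3 with L1L2-AKO replicate 1 (0.211). With the replicate block, 4 of the 9 genes, 2514 of all genes and 4 endothelial markers, all lower, were called, with adjusted p-values of 0.056 for *Serping1* and 0.0586 for *Serpind1*. Per kb of longest transcript instead of all exons, levels were 10.8 and 116 for *Serpine2*, 68.5 and 68.2 for *Serpinf1*, 3.43 and 5.91 for *Plaur*, 4.58 and 3.48 for *Plat* and 16.5 and 15.5 for *Tfpi* in L1L2-FF and L1L2-AKO, and 13.3 for *F3*, 3.67 for *Tfpi2* and 7.33 for *Procr* in L1L2-FF, by construction of the shorter length. With 3 libraries per genotype, an interval that includes 0 does not exclude changes up to its bounds.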
